A study of Rattus norvegicus with 12 samples.

Results

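Cholesterol and fatty acid synthesis genes were described in rat lung and in endothelial cells (ECs) as a fixed list of 29 genes, taken by symbol from a table of 19230 gene rows. All 29 symbols were found. Of these, 26 had a row of their own, and 3 (Srebf2, Tm7sf2 and Ebp) occurred only in rows that merge neighbouring genes, so a value there cannot be given to 1 gene. Sqle had both its own row, used here, and a row merged with Nsmce2. RNA was sequenced from Sprague-Dawley rats in 4 groups of 3 libraries. Lungs labelled Ahr-KO were taken at day 4 of SuHx, wild-type (WT) lungs at day 4 of SuHx and WT lungs in normoxia at day 0, and ECs came from WT rats in normoxia. The ECs carry day 4 in the labels and 0 in the table's column names. SuHx is the rat model of pulmonary arterial hypertension that joins Sugen, an inhibitor of VEGF receptors, with hypoxia. Neither agent was given alone and no Ahr-KO normoxia group was analysed here, so the effects of drug and hypoxia cannot be told apart and the effect of genotype before treatment is not measured. Whether replicates are separate animals is not stated, and p-values therefore measure the spread between libraries, which may be technical.

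Ahr encodes the aryl hydrocarbon receptor (AhR). Neither labels nor design text say which stretch of it was removed. Ahr mRNA gave a signal of 1800.0 to 2523 in the lungs labelled Ahr-KO and of 1739.6 to 3073 in WT SuHx lungs, so the mRNA level did not separate them, and reads outside a deletion would check nothing. Cyp1a1, a classical AhR target, had a signal of 3.87, 5.31 and 5.32 in the lungs labelled Ahr-KO. In WT SuHx lungs it had 65459, 68888 and 75071, against 476, 39.2 and 298 in WT normoxia lungs. The signal is an estimated read count divided by 1 factor per library and is not corrected for gene length, so levels are compared within a gene only. Libraries held 20.04 M to 28.59 M reads, and single ones are called by their group and column suffix (normoxia 0, Ahr-KO 2). The EC label was borne out by 9 of 9 endothelial markers, which were higher in ECs than in lung, with summed signals of 213224 to 253459 in ECs and 74024 to 83032 in WT normoxia lungs. Of all genes tested, 26.1% were called as higher in ECs. The ECs also held alveolar type 2 marker RNA. Sftpc had 103787, 118532 and 46859 in ECs and 201197, 311307 and 220058 in WT normoxia lungs. In lung, proliferating cell markers were higher than in normoxia in both SuHx groups for 8 of 8 genes. Their summed signal was 11161 to 13433 in the labelled Ahr-KO SuHx lungs, 8198 to 9460 in WT SuHx lungs and 1683 to 2758 in WT normoxia lungs. Erythroid markers were likewise higher in both SuHx groups for 6 of 6 genes, smooth muscle markers for 4 of 6, fibroblast markers for 3 of 6 and macrophage markers for 3 of 8, the complement genes C1qa, C1qb and C1qc. C1qa had 965, 1300.0 and 1590 in the labelled Ahr-KO SuHx lungs, 2100.0, 2142 and 3013 in WT SuHx lungs and 682, 776 and 701 in WT normoxia lungs, so its groups stood apart. C1qc was called as lower in the labelled Ahr-KO than in WT SuHx lungs (-0.97, limma adjusted p = 0.0458). Other macrophage markers went the other way without overlap, as did 11.7% of all genes, and were not called. Adgre1 had 402, 395 and 404 in the labelled Ahr-KO SuHx lungs against 234, 232 and 290 in WT SuHx lungs. Siglec1 had 343, 354 and 274 against 236, 264 and 210, and Mrc1 had 2607, 3132 and 2672 against 2246, 2601 and 2258. The summed macrophage signal was 15515 to 18352 in the labelled Ahr-KO SuHx lungs, 20559.5 to 21220 in WT SuHx lungs and 15587 to 19365 in WT normoxia lungs. Endothelial markers were lower than in normoxia for 2 of 9 genes in either SuHx group, and airway markers for 1 of 6. Alveolar type 2 markers were called as lower for 1 of 9 genes in WT SuHx and for 0 in labelled Ahr-KO SuHx lungs. At an unadjusted p under 0.05 (limma), 2 and 4 of the 9 were lower (17.3% and 13.5% of all genes). Over all genes tested, 7.08% were called as higher and 6.39% as lower in WT SuHx lungs. In the labelled Ahr-KO SuHx lungs the shares were 5.95% and 3.8%. The part of these cell types in the results below was not tested, and in bulk lung fewer cells of a type and less RNA per cell cannot be told apart.

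Cholesterol is built from acetyl-CoA through mevalonate, isoprenoid diphosphates, squalene and lanosterol. Fatty acids are built from the same acetyl-CoA by a separate set of enzymes. Both routes are controlled by the sterol regulatory element-binding proteins, transcription factors held in the endoplasmic reticulum by Scap and Insig proteins while sterols are plentiful. The product of Srebf2 is best known for driving sterol genes, and that of Srebf1 for fatty acid genes. In lung, alveolar type 2 cells make much fatty acid for surfactant lipids.

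Promoter sequences from RefSeq (GRCr8 assembly, 250 bases before to 50 bases after the annotated start) were matched for 22 of the 29 genes. The 4 shown belong to the genes with the smallest adjusted p in WT SuHx lungs against WT normoxia lungs among those with an entry. Capitals mark CCAAT, the letters read by NF-Y, a partner of the sterol regulatory factors, and GCGTG, the core letters of AhR response elements, each on either strand (ATTGG and CACGC on the other).
Idi1, minus strand, chr17:66547475-66547774: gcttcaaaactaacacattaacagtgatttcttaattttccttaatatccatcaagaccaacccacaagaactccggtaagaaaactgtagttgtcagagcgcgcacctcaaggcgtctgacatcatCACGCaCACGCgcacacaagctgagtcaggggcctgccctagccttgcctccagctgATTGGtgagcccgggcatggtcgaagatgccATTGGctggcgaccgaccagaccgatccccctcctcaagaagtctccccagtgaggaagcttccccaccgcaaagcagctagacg
Cyp51, plus strand, chr4:30991443-30991742: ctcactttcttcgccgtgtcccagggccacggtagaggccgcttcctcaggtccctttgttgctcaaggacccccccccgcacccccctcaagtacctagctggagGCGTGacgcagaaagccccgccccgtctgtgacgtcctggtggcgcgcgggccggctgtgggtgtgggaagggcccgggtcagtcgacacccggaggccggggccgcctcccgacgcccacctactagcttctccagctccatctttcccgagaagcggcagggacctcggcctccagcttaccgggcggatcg
Dhcr7, plus strand, chr1:208444184-208444483: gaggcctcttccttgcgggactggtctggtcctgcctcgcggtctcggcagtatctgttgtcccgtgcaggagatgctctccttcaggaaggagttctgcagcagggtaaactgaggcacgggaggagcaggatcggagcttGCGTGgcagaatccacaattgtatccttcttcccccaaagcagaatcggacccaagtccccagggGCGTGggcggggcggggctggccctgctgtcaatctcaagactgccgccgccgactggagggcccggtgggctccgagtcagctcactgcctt
Msmo1, plus strand, chr16:29746863-29747162: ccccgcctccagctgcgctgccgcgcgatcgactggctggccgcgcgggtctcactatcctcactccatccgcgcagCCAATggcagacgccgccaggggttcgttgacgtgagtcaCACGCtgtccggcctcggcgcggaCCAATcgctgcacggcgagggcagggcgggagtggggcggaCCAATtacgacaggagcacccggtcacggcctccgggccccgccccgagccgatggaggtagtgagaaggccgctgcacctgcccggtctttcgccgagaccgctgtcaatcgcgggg
CCAAT was found in 17 of the 22 promoters and in 37.5% of 33469 rat promoters of the same length. GCGTG was found in 13 of the 22 and in 29.7% of all. TCACNCCAC, a sterol regulatory element type of motif searched on both strands, was found in 0 of the 22 and in 1.12% of all. With so low a share, its absence from 22 promoters says little. Looser forms and sites outside these bases were not searched. Among the promoters printed, Idi1 held both CCAAT and GCGTG, Msmo1 held both, and Cyp51 and Dhcr7 held GCGTG without CCAAT. A match describes letters and is no binding site.

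WT SuHx lungs differed from WT normoxia lungs by more RNA of sterol synthesis enzymes, while no listed fatty acid synthesis gene was called. Among further enzymes outside the list, described below, Scd2 and Acacb were called as lower and Hsd17b12 as higher. Of the 28 genes that passed the filter (mean signal of at least 1), 11 rose, 1 fell and 16 were not called at an adjusted p under 0.05 (limma on log2(signal + 1), Benjamini-Hochberg over all 15234 genes tested). In the same comparison 13.5% of all genes tested were called, 7.08% as higher and 6.39% as lower. All 11 that rose were among the 17 sterol enzymes, from Hmgcs1 at the head of the route to Dhcr7 at its end. The median log2 fold change was 0.49 over the 17 sterol enzymes and -0.04 over all genes tested. In 14 of the 17 the WT SuHx libraries lay above every normoxia library, which held for 17% of all genes tested. Over all 28 members the groups did not overlap for 18 genes, 14 of them higher and 4 lower, where the shares of all genes were 36.7%, 17% and 19.7%. Elovl6, a fatty acid elongase, was the member that missed the filter, being listed at 0 in most libraries.

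**Figure D1:**
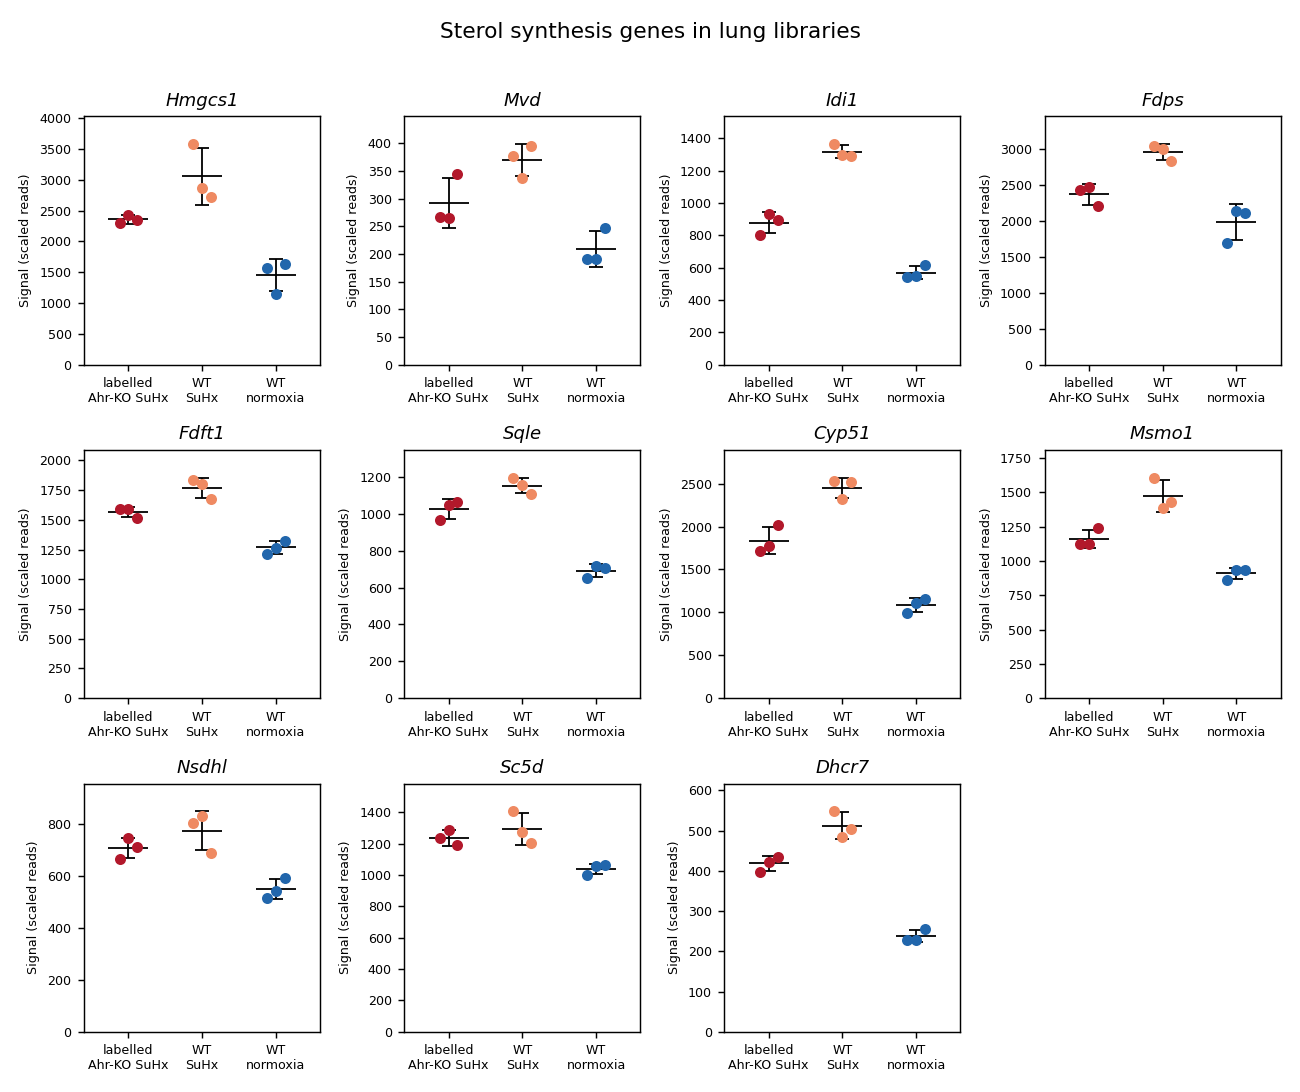
Signal (scaled reads, linear axes from 0) of the 11 sterol synthesis genes called in WT SuHx lungs against WT normoxia lungs. Each point is 1 library, the long bar is the group mean and the whiskers are ± SD (n = 3). For Idi1 the WT SuHx points lie at 1294 to 1365, the labelled Ahr-KO SuHx points at 805 to 932 and the WT normoxia points at 542 to 617.

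The early, mevalonate part of the pathway held the change of largest size, in Idi1. Hmgcs1, which makes HMG-CoA, had a signal of 2292, 2429.9 and 2343 in the labelled Ahr-KO SuHx lungs, 3579, 2871 and 2716 in WT SuHx lungs and 1561, 1151 and 1630.4 in WT normoxia lungs. The 3 groups did not overlap, and WT SuHx lungs were 2.12-fold above WT normoxia lungs (log2 fold change 1.08 ± 0.15 SE, limma adjusted p = 0.00210). Mvd, the decarboxylase that makes isopentenyl diphosphate, had 266, 265 and 345 in the labelled Ahr-KO SuHx lungs, 376, 337 and 395 in WT SuHx lungs and 191, 190.1 and 247 in WT normoxia lungs. Both SuHx groups lay above normoxia and overlapped each other, and WT SuHx lungs rose by 0.82 ± 0.16 SE on the log2 scale over WT normoxia lungs (limma adjusted p = 0.0124). Idi1, which interconverts the 5-carbon isoprenoid units, had 805, 932 and 895 in the labelled Ahr-KO SuHx lungs, 1365, 1295 and 1294 in WT SuHx lungs and 542, 547 and 617 in WT normoxia lungs. Again no groups overlapped, and Idi1 was 2.32-fold higher in WT SuHx lungs than in WT normoxia lungs (1.21 ± 0.10 SE, limma adjusted p = 0.000283). Fdps, which joins these units into farnesyl diphosphate, had 2432, 2473 and 2210.3 in the labelled Ahr-KO SuHx lungs, 3052, 3001 and 2840.2 in WT SuHx lungs and 1698, 2146 and 2107 in WT normoxia lungs. It was 1.50-fold higher in WT SuHx lungs than in WT normoxia lungs, with no overlap (0.59 ± 0.10 SE, limma adjusted p = 0.00771). The kinases Mvk and Pmvk, which phosphorylate mevalonate, were not called. Their log2 fold changes were 0.34 (limma adjusted p = 0.0861) and 0.33 (limma adjusted p = 0.237), though their WT SuHx libraries all lay above the normoxia ones. Mvk ranged over 447 to 464 in the labelled Ahr-KO SuHx lungs, 464 to 542 in WT SuHx lungs and 348 to 435 in WT normoxia lungs. Pmvk ranged over 419 to 628 in the labelled Ahr-KO SuHx lungs, 511 to 718 in WT SuHx lungs and 444 to 492 in WT normoxia lungs, and its SuHx groups overlapped each other.

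From squalene onward the size of the difference varied along the route. Fdft1, the squalene synthase, had 1593, 1594 and 1514 in the labelled Ahr-KO SuHx lungs, 1837, 1800.0 and 1672 in WT SuHx lungs and 1216, 1263 and 1327 in WT normoxia lungs. Sqle, the squalene epoxidase, had 965, 1048 and 1065 in the labelled Ahr-KO SuHx lungs, 1197, 1155 and 1111 in WT SuHx lungs and 653, 718 and 707 in WT normoxia lungs. In both genes the 3 groups stood in the same order without overlap, and WT SuHx lungs were 1.39-fold and 1.67-fold above WT normoxia lungs (limma adjusted p = 0.00543 and 0.00106). Cyp51, which demethylates lanosterol, had 1716, 1771 and 2020.0 in the labelled Ahr-KO SuHx lungs, 2528, 2319.6 and 2514 in WT SuHx lungs and 994, 1105 and 1158 in WT normoxia lungs. It was 2.26-fold higher in WT SuHx lungs than in WT normoxia lungs, and every labelled Ahr-KO library fell between the WT groups (1.18 ± 0.10 SE, limma adjusted p = 0.000286). Msmo1, a methylsterol monooxygenase, had 1125, 1121 and 1239 in the labelled Ahr-KO SuHx lungs, 1608, 1386 and 1432 in WT SuHx lungs and 865, 935 and 931 in WT normoxia lungs. Nsdhl, which acts with Msmo1 on the same methyl groups, had 666, 745 and 711 in the labelled Ahr-KO SuHx lungs, 803, 829.7 and 689 in WT SuHx lungs and 516, 543 and 591 in WT normoxia lungs. Msmo1 separated all 3 groups, while the SuHx groups overlapped for Nsdhl. WT SuHx lungs exceeded WT normoxia lungs by 0.69 ± 0.09 SE for Msmo1 (limma adjusted p = 0.00185) and 0.49 ± 0.11 SE for Nsdhl on the log2 scale (limma adjusted p = 0.0188).

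Sc5d, a sterol desaturase, had 1235, 1289 and 1189.9 in the labelled Ahr-KO SuHx lungs, 1408, 1275 and 1204 in WT SuHx lungs and 1003, 1058 and 1062 in WT normoxia lungs. The SuHx groups overlapped each other and lay above normoxia. Its change in WT SuHx lungs was the smallest rise called, 1.24-fold above WT normoxia lungs (limma adjusted p = 0.0447), and the call was lost in 10 of 19 alternative settings of scaling, filter, fit or libraries (limma adjusted p of at most 0.155). Dhcr7, the reductase that makes cholesterol from its dehydro precursor, had 398, 422 and 435 in the labelled Ahr-KO SuHx lungs, 549, 483 and 504 in WT SuHx lungs and 228, 229 and 255 in WT normoxia lungs. It separated all 3 groups and was 2.15-fold higher in WT SuHx lungs than in WT normoxia lungs (1.10 ± 0.11 SE, limma adjusted p = 0.000551). The members not called were Lss, the lanosterol synthase (0.28), Tm7sf2 (0.17), Hsd17b7 (0.45) and Ebp (0.14), with limma adjusted p between 0.150 and 0.551. Lss spread widely within groups, over 334 to 757 in the labelled Ahr-KO SuHx lungs, 511 to 822 in WT SuHx lungs and 498 to 691 in WT normoxia lungs. Hsd17b7, a sterol ketone reductase, ranged over 281 to 313 in the labelled Ahr-KO SuHx lungs, 183 to 317 in WT SuHx lungs and 138 to 268 in WT normoxia lungs. For both genes the WT groups overlapped. The merged row of Tm7sf2, a sterol reductase, ranged over 1304 to 1384 in the labelled Ahr-KO SuHx lungs, 1553 to 1599.8 in WT SuHx lungs and 1352 to 1458 in WT normoxia lungs. The WT SuHx libraries were the highest there, without overlap. The merged row of Ebp ranged over 829.8 to 857 in the labelled Ahr-KO SuHx lungs, 856 to 959.9 in WT SuHx lungs and 771 to 893 in WT normoxia lungs, and all groups overlapped. All 17 sterol enzymes had a positive log2 fold change, from 0.14 to 1.21. Calls for Hmgcs1, Idi1, Fdps, Fdft1, Sqle, Cyp51, Msmo1 and Dhcr7 were kept in all 19 alternatives tried. Mvd lost its call in 2, both by leaving out 1 library, with an adjusted p of 0.0502 without normoxia 0 and 0.0523 without WT SuHx 0. Nsdhl lost its call in 3, without normoxia 0 (0.0744), normoxia 1 (0.0557) or WT SuHx 0 (0.0773).

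Of the 4 regulators of the pathway, 0 were called as higher by limma, also at an unadjusted p under 0.05 (14.4% of all genes were higher and 17.3% lower at that level), and 1 was called as lower. Srebf1 was the member that fell, with a signal of 2329, 2062 and 2615 in the labelled Ahr-KO SuHx lungs, 2060.4, 2409 and 1712 in WT SuHx lungs and 4100.1, 4029 and 2699 in WT normoxia lungs. Every SuHx library lay below every normoxia library, and the difference of WT SuHx from WT normoxia lungs was -0.80 ± 0.18 SE on the log2 scale (limma adjusted p = 0.0223). This call was lost without normoxia 0 (0.0847), normoxia 1 (0.0745), WT SuHx 0 (0.0684) or WT SuHx 2 (0.0746). Srebf2, in a row merged with Ccdc134, had 5234, 4828 and 4869.7 in the labelled Ahr-KO SuHx lungs, 5140.2, 5251 and 5562 in WT SuHx lungs and 5369.9, 5589 and 5078 in WT normoxia lungs. Scap, the escort protein, had 1793, 1832 and 1657 in the labelled Ahr-KO SuHx lungs, 1668, 1633 and 1361 in WT SuHx lungs and 1611, 1886 and 1485 in WT normoxia lungs. The WT groups overlapped in both genes, whose log2 fold changes were -0.01 and -0.09 in WT SuHx lungs. Insig1, the retention protein and itself a target of the sterol pathway, had 1719.8, 1718 and 1787 in the labelled Ahr-KO SuHx lungs, 2141, 2014 and 1864 in WT SuHx lungs and 2233, 2086 and 2102 in WT normoxia lungs. Its WT groups overlapped, with a log2 fold change of -0.09 (limma adjusted p = 0.445), so Insig1 was not called with the enzymes. Stard4, a cytosolic sterol carrier, was not called either, at -0.02. It ranged over 698 to 1039.6 in the labelled Ahr-KO SuHx lungs, 786 to 1005 in WT SuHx lungs and 873 to 979 in WT normoxia lungs, with all groups overlapping.

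The listed fatty acid synthesis genes gave no call in WT SuHx lungs against WT normoxia lungs. Of the 6 tested by limma, 0 were called and 3 had an unadjusted p under 0.05, all lower (17.3% of all genes), and the median log2 fold change was -0.37. Fasn, the fatty acid synthase, had 8597, 9308 and 9474 in the labelled Ahr-KO SuHx lungs, 9869.8, 12229 and 9626 in WT SuHx lungs and 14993, 31436 and 9918 in WT normoxia lungs. One normoxia library stood far above the rest, the WT SuHx libraries overlapped the normoxia ones and the labelled Ahr-KO libraries lay below both (WT SuHx over WT normoxia -0.67 ± 0.34 SE, limma adjusted p = 0.203). The normoxia library with the highest Fasn also had the highest summed signal of alveolar type 2 markers, 717811, in a normoxia range of 485279 to 717811 and against 433452 to 479288 in the labelled Ahr-KO and 349911 to 498238 in WT SuHx lungs. In the SuHx groups the library with the highest Fasn had the lowest such sum. These were WT SuHx 1 (Fasn 12229, sum 349911) and Ahr-KO 2 (Fasn 9474, sum 433452). The part of alveolar type 2 cells in the Fasn values was not tested. Scd, which desaturates stearate, had 4068, 3734 and 11292 in the labelled Ahr-KO SuHx lungs, 3770.5, 7028 and 3953 in WT SuHx lungs and 12593, 8705 and 8154 in WT normoxia lungs. WT SuHx lungs lay below normoxia without overlap, but were not called (-1.03 ± 0.41 SE, limma adjusted p = 0.120). The labelled Ahr-KO library with 11292 was also high in fat cell RNA, with Adipoq at 387, Plin1 at 271 and Ucp1 at 172. The other labelled Ahr-KO libraries had Adipoq at 6.19 and 1.77 and Ucp1 at 0. Lipe, of the same marker list, went the other way, with 2334 there against 3043 and 2881. That library also had the highest summed cardiac (25174) and airway (209416) marker signal of its group. The part of this other RNA in the Scd value was not tested. Acaca, the acetyl-CoA carboxylase, differed by -0.48 ± 0.14 SE in WT SuHx lungs from WT normoxia lungs (limma adjusted p = 0.0555). Acly, which makes cytosolic acetyl-CoA for both routes, differed by -0.27, and the desaturases Fads1 and Fads2 by -0.24 and 0.06. Acaca ranged over 1724 to 1869 in the labelled Ahr-KO SuHx lungs, 1446 to 1928 in WT SuHx lungs and 1922 to 2737 in WT normoxia lungs. Acly ranged over 4516 to 5716 in the labelled Ahr-KO SuHx lungs, 5772 to 6304 in WT SuHx lungs and 6325 to 8700.3 in WT normoxia lungs. Acly thus ran in 3 steps without overlap, lowest in the labelled Ahr-KO lungs, while Acaca overlapped between the WT groups. Without normoxia 2 and Ahr-KO 2 together, the libraries with the most cardiac marker RNA in their groups, Acaca (-0.61), Fasn (-1.05) and Scd (-1.15) were called as lower in WT SuHx lungs (limma adjusted p = 0.0287, 0.0444 and 0.0329). Normoxia 2 also had the lowest Acaca, Fasn and Scd of its group. Of the 19 alternatives, Acaca was called in 3, Fasn in 2 and Scd in 2 (limma adjusted p of at most 0.163, 0.498 and 0.303). Without normoxia 1, the library with the highest Fasn, Fasn had -0.21 and was not called (limma adjusted p = 0.498).

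**Figure D2:**
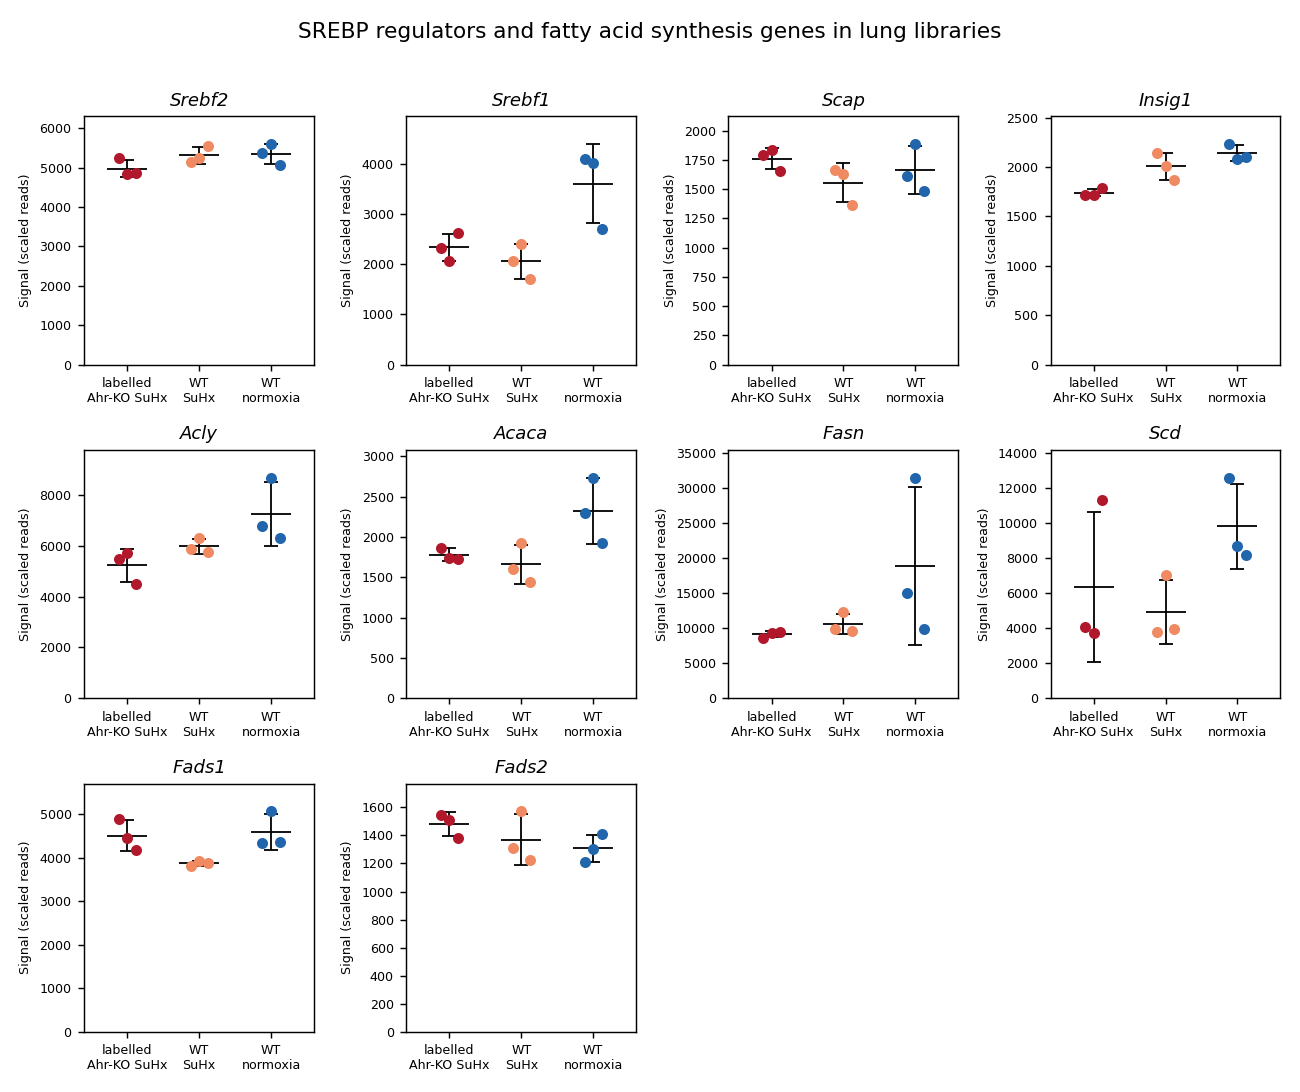
Signal (scaled reads) of the regulators and of fatty acid synthesis genes by lung library. Points are libraries, long bars group means and whiskers ± SD (n = 3). Srebf1 lies at 1712 to 2615 in all SuHx libraries and at 2699 to 4100.1 in normoxia, and Fasn has 1 normoxia library at 31436.

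Lungs labelled Ahr-KO were set against WT SuHx lungs to ask whether the genotype changes these genes under SuHx. Of 28 genes tested, 0 rose, 1 fell and 27 were not called (limma, Benjamini-Hochberg), where 0.499% of all genes tested were called, 0.197% as higher and 0.302% as lower. At an unadjusted p under 0.05, 1 was higher and 8 lower, where the shares of all genes were 7.45% and 6.19%. The gene that fell was Idi1, 1.50-fold lower in the labelled Ahr-KO SuHx lungs than in WT SuHx lungs (-0.59 ± 0.10 SE, limma adjusted p = 0.0352). Its call was lost in 10 of 19 alternatives, with an adjusted p of at most 0.155, and among them was each Ahr-KO and each WT SuHx library left out. With the column suffix as a replicate block, counted apart from the 19, the call was lost as well (limma adjusted p = 0.0516). The sterol enzymes as a list had a median log2 fold change of -0.26, against 0.02 for all genes, and 16 of 17 values were negative. In 10 of 17 every labelled Ahr-KO library lay below every WT SuHx library, which held for 10.2% of all genes tested. Over the 28 members there was no overlap for 14, 1 higher and 13 lower, where the shares of all genes were 21.9%, 11.7% and 10.2%. The values included Lss at -0.57 ± 0.30 SE with overlapping groups (limma adjusted p = 0.435), Cyp51 at -0.42 ± 0.10 SE (limma adjusted p = 0.119), Hmgcs1 at -0.37 (0.327), Mvd at -0.35, Msmo1 at -0.34 (0.163), Fdps at -0.32 (0.235) and Dhcr7 at -0.29 (0.303), none of them called. Hsd17b7 was the sterol enzyme with a positive value, 0.22. Among the fatty acid genes Fads1 was higher without overlap, with 4892, 4455 and 4178 in the labelled Ahr-KO SuHx lungs against 3798, 3912 and 3886 in WT SuHx lungs, and was not called (0.22). Srebf1 (0.19) and Insig1 (-0.20) were not called.

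Against WT normoxia lungs, the labelled Ahr-KO SuHx lungs still held more RNA of several sterol enzymes. Here 7 of the 28 genes rose, 1 fell and 20 were not called, where 9.75% of all genes tested were called, 5.95% as higher and 3.8% as lower. The 7 were Hmgcs1 (log2 fold change 0.72), Idi1 (0.62), Fdft1 (0.30), Sqle (0.57), Cyp51 (0.76), Msmo1 (0.35) and Dhcr7 (0.81), with limma adjusted p between 0.00137 and 0.0424. The 17 sterol enzymes had a median of 0.35, against -0.03 for all genes, and 15 values were positive. The groups did not overlap for 18 of the 28 members, 13 higher and 5 lower, where the shares of all genes were 33%, 15.1% and 17.9%. Insig1 was the gene that fell (-0.30 ± 0.08 SE, limma adjusted p = 0.0492), with no overlap between the groups, and it lost its call in 14 of 19 alternatives. Idi1, Sqle, Cyp51 and Dhcr7 kept their calls in all 19, whereas Hmgcs1 lost its call without Ahr-KO 1 (0.0641), Fdft1 in 11 and Msmo1 in 12 (at most 0.144 in both). Fdft1 and Msmo1 lost it, as did Insig1 (at most 0.163), without any 1 of the labelled Ahr-KO libraries, normoxia 0 or normoxia 1. Srebf1 had -0.61 ± 0.18 SE (limma adjusted p = 0.0681). Of the 6 fatty acid genes 0 were called by limma and 3 had an unadjusted p under 0.05, all lower, where the shares of all genes were 12.5% higher and 13.5% lower. Without normoxia 2 and Ahr-KO 2 together, Fasn (-1.28), Scd (-1.43) and Srebf1 (-0.89) were called as lower (limma adjusted p = 0.0478, 0.0331 and 0.0173). Of the 19 alternatives, Fasn was called in 2, Scd in 2 and Srebf1 in 3 (limma adjusted p of at most 0.253, 0.527 and 0.211). Without normoxia 1, Fasn had -0.42 against -0.87 with all libraries and was not called (limma adjusted p = 0.253). The 3 lung comparisons share libraries, so their fold changes are given side by side without a test of likeness.

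**Figure D3:**
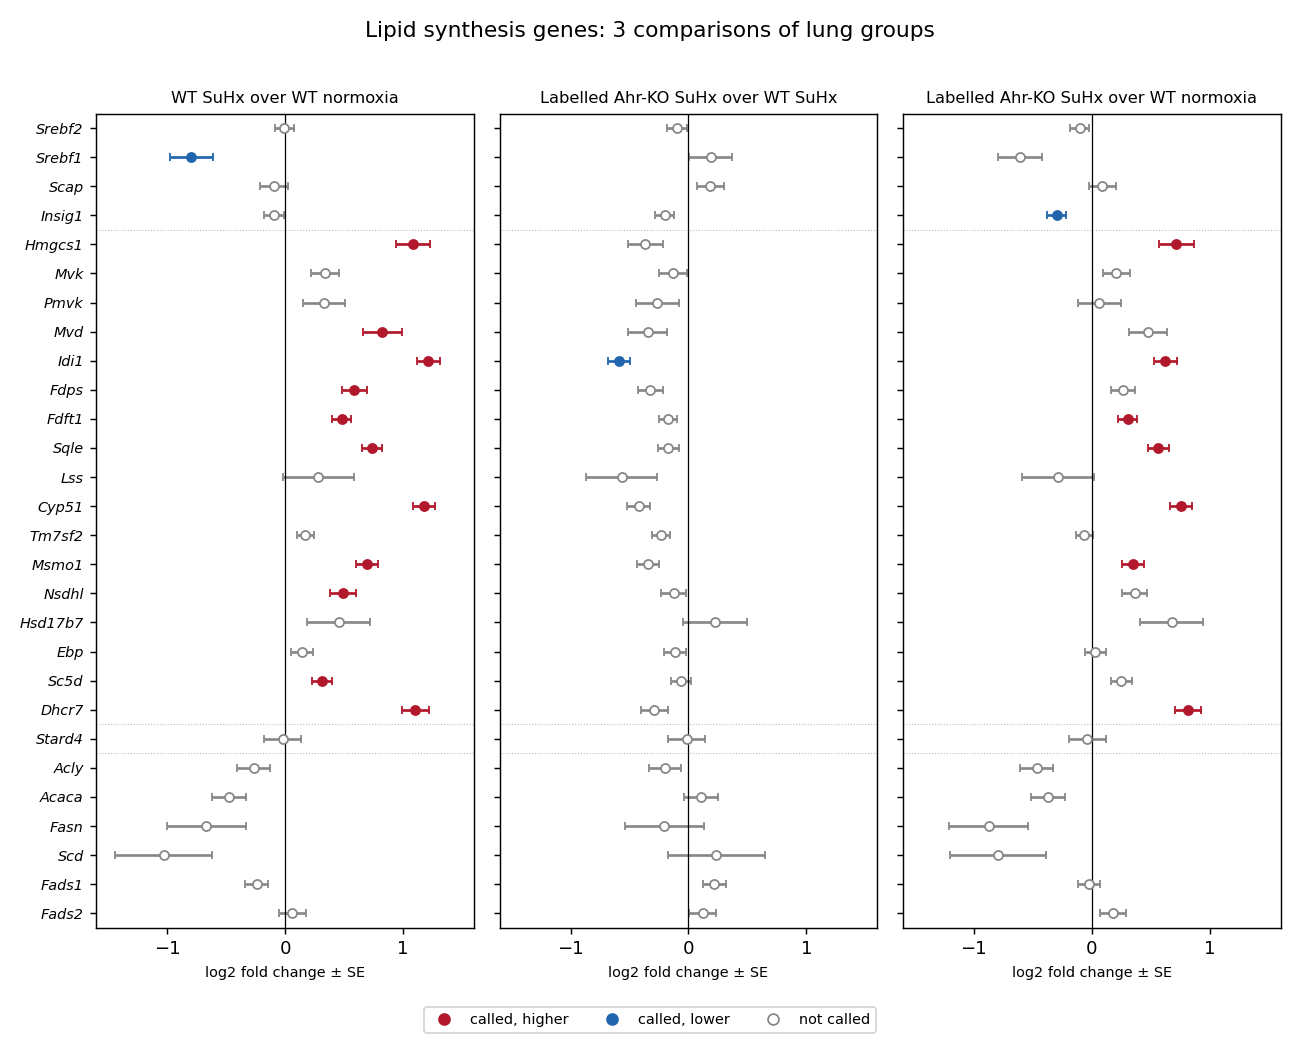
Log2 fold changes ± SE (x axes, the same in each panel) of the 28 tested genes in the 3 lung comparisons, ordered by role with regulators on top and fatty acid genes at the bottom. Filled points are called by limma at an adjusted p under 0.05. Idi1 lies at 1.21 in WT SuHx over WT normoxia, -0.59 in labelled Ahr-KO SuHx over WT SuHx and 0.62 in labelled Ahr-KO SuHx over WT normoxia lungs.

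Library by library, the sterol enzymes placed the labelled Ahr-KO lungs between the WT groups. The median log2 difference of the 17 enzymes from their normoxia means was 0.31, 0.35 and 0.43 in the labelled Ahr-KO SuHx lungs, 0.63, 0.60 and 0.53 in WT SuHx lungs and -0.07, 0.02 and 0.07 in WT normoxia lungs. No library of 1 group reached into another. By group means, the labelled Ahr-KO lungs lay between the WT groups for 14 of the 17 enzymes, and WT SuHx lungs were highest for 16. The exceptions were Lss and Tm7sf2, which had their lowest mean in the labelled Ahr-KO lungs, and Hsd17b7, which had its highest mean there. The share of all genes with such an order of groups was not measured. The distances of WT SuHx lungs from both other groups rest on the same WT SuHx libraries. The fatty acid genes gave medians of -0.35, -0.37 and -0.27 in the labelled Ahr-KO SuHx lungs, -0.41, -0.24 and -0.49 in WT SuHx lungs and -0.08, 0.20 and -0.21 in WT normoxia lungs, so the SuHx groups overlapped. In ECs the sterol medians were -0.50, -0.42 and -0.43.

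**Figure D4:**
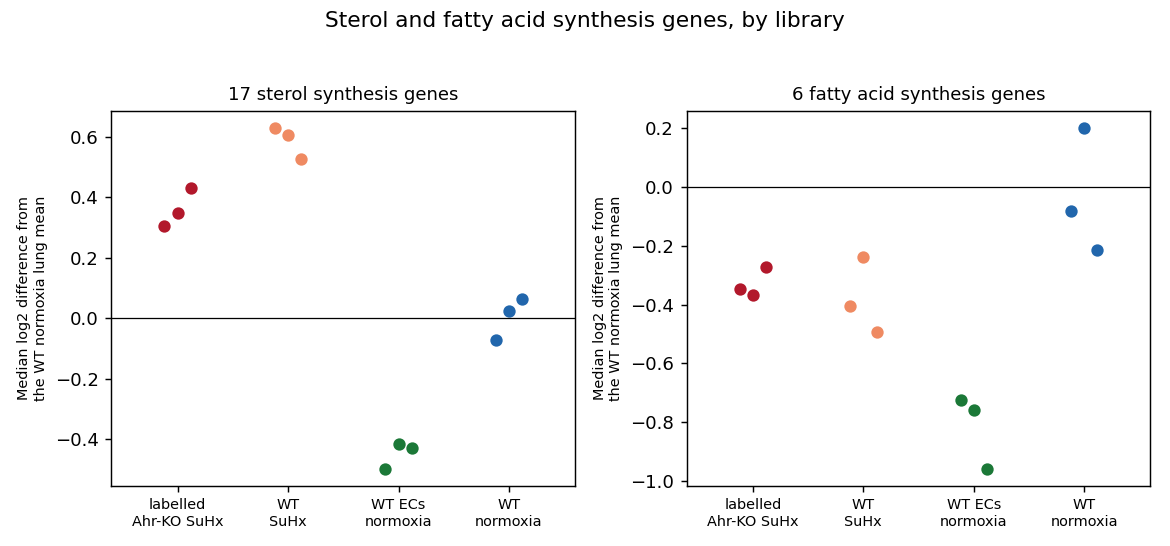
Median log2 difference from the normoxia lung mean (y axis) over the 17 sterol synthesis genes and over the 6 tested fatty acid synthesis genes, 1 point per library. The sterol medians are 0.31 to 0.43 in the labelled Ahr-KO SuHx lungs, 0.53 to 0.63 in WT SuHx lungs and -0.50 to -0.42 in ECs.

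ECs differed from WT normoxia lungs in another way, with most of both routes lower. Of the 28 genes, 4 were higher in ECs, 15 lower and 9 not called by limma over 15186 genes, where 56.2% of all genes were called, 26.1% as higher and 30.1% as lower. The groups did not overlap for 22 of the 28, 5 higher and 17 lower, where the shares of all genes were 65.5%, 30.4% and 35.1%. Scd fell by the most, with a signal of 2054, 2335 and 1481.5 in ECs and of 12593, 8705 and 8154 in WT normoxia lungs. Lss had 203, 246 and 216 in ECs and 498, 691 and 516 in WT normoxia lungs, and Sqle had 335, 256 and 301 in ECs and 653, 718 and 707 in WT normoxia lungs. None of these groups overlapped, and the log2 fold changes were -2.32 ± 0.22 SE for Scd, -1.34 ± 0.17 SE for Lss and -1.23 ± 0.13 SE for Sqle (limma adjusted p = 0.000167, 0.000512 and 0.000294). Squalene and later enzymes were lower for Fdft1 (-1.02), Hsd17b7 (-0.91), Sc5d (-0.79), Msmo1 (-0.65) and Nsdhl (-0.63) as well, and the kinases Pmvk and Mvk had -0.68 and -0.53. The Hsd17b7 call was lost in 6 of 15 alternatives, with quantile normalization (-0.35, limma adjusted p = 0.389) and without normoxia 1, normoxia 2, EC 0 or EC 1 (0.0561 to 0.0820). Ahr-KO 2 is not in this fit, so leaving out both it and normoxia 2 repeats the fit without normoxia 2. Mvk lost its call with quantile normalization (-0.25), and Acaca lost its call without normoxia 0, normoxia 1 or EC 2 (0.0538 to 0.0659). Cyp51 (0.22), Dhcr7 (-0.18), Hmgcs1 (0.02), Idi1 (0.12), Fdps (-0.15) and Mvd (0.41) were not called. Mvd was called as higher with quantile normalization (0.81), with all 12 libraries in the fit and without normoxia 2 (0.53), and Fdps was called as lower with quantile normalization (-0.33). Of the 6 fatty acid genes 5 were lower in ECs and all 6 had no overlap, while Fasn (-1.19 ± 0.47 SE) was not called (limma adjusted p = 0.0663). Fasn was called as lower in 4 of 15 alternatives, among them without normoxia 2 (-1.57, limma adjusted p = 0.0342), and had -0.74 without normoxia 1, where it was not called. Alveolar type 2 markers were lower in ECs for 8 of 9 genes, with sums of 104781 to 259999 in ECs and 485279 to 717811 in WT normoxia lungs, and their part in these differences was not tested.

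The 4 genes higher in ECs were the sterol carrier Stard4, the regulator Insig1 and the synthesis enzymes Ebp and Tm7sf2. Stard4 had a signal of 1814, 2455 and 1766 in ECs and of 873, 897 and 979 in WT normoxia lungs, and Insig1 had 3363, 3304 and 3149 in ECs and 2233, 2086 and 2102 in WT normoxia lungs. Ebp, a sterol isomerase read in a row merged with Tbc1d25, had 1121, 1204 and 1115 in ECs and 819, 893 and 771 in WT normoxia lungs. All 3 were higher in ECs without overlap, by 1.12 ± 0.14 SE for Stard4, 0.61 ± 0.08 SE for Insig1 and 0.47 ± 0.09 SE for Ebp on the log2 scale (limma adjusted p = 0.000529, 0.000496 and 0.00416). Tm7sf2, in its merged row, was the other gene higher in ECs (0.26, limma adjusted p = 0.0244), a call lost in 5 of 15 alternatives. Srebf1 was lower in ECs (-0.94), and Srebf2 (-0.18) and Scap were not called, though Srebf2 was called as lower with quantile normalization (-0.57, limma adjusted p = 0.00138).

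**Figure D5:**
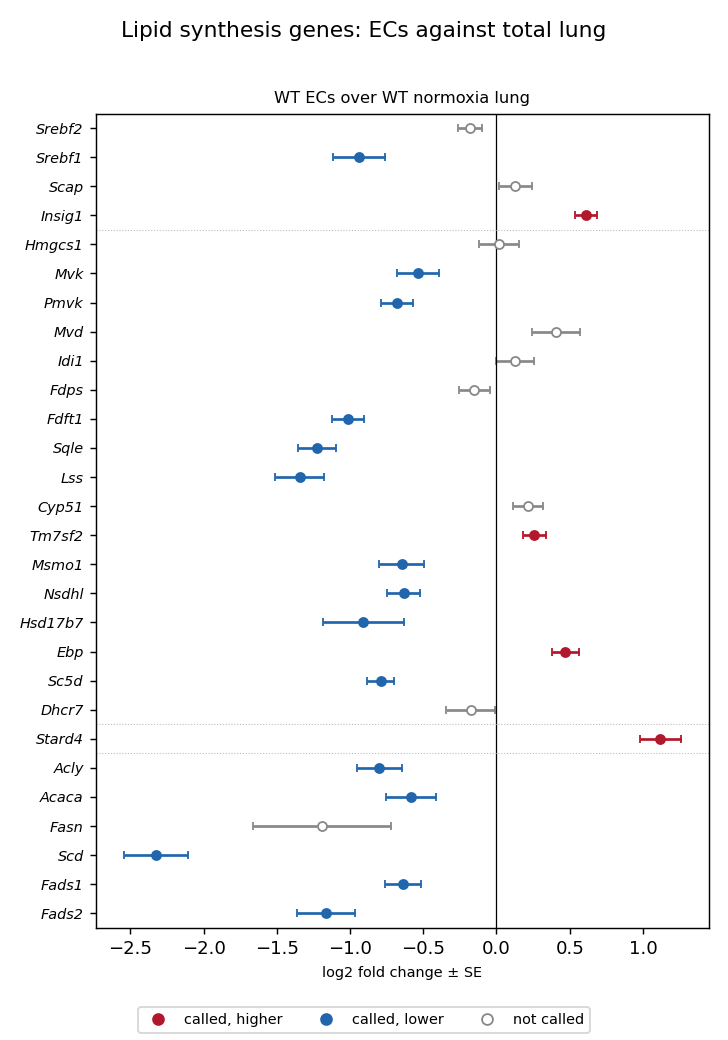
Log2 fold changes ± SE (x axis) of the 28 tested genes in WT ECs over WT normoxia lungs, ordered by role, with called genes filled. Stard4 is the highest at 1.12 and Scd the lowest at -2.32.

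Neighbouring pathways were read from lists of further enzymes, of sterol regulatory protein processing and uptake, of the liver X receptors (LXR, sterol-sensing nuclear receptors) with cholesterol efflux, and of lipogenic transcription factors. Of 17 further synthesis enzymes, 5 rose and 2 fell in WT SuHx lungs against WT normoxia lungs (7.08% and 6.39% of all genes). Among them Hsd17b12, a fatty acid elongation enzyme, rose by 0.61 ± 0.11 SE (limma adjusted p = 0.00944) and the row of Acat2, a thiolase that feeds the mevalonate route, merged with Acat2l1, by 0.80 ± 0.16 SE (limma adjusted p = 0.0112) on the log2 scale. Chosen after their values were seen, Acacb, a mitochondrial acetyl-CoA carboxylase (-0.91), and Scd2, a further stearate desaturase (-0.80), were the 2 that fell. Of 17 processing and uptake genes 2 rose and 1 fell, close to the 7.08% and 6.39% of all genes. Tmem97, a sterol-responsive membrane protein, had 0.77, and Npc1, which exports cholesterol from lysosomes, had -0.82. Of 10 LXR and efflux genes 1 rose and 3 fell, with Mylip, an LXR target that degrades lipoprotein receptors, at -1.08 ± 0.12 SE (limma adjusted p = 0.000960). The sterol exporter Abcg1 had -1.08, the lipoprotein component Apoe -0.94 and Ch25h, which hydroxylates cholesterol, 1.30. Of 10 lipogenic transcription factors 0 were called by limma. At an unadjusted p under 0.05, 2 were lower, as were 17.3% of all genes.

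Of these lists, 0 genes were called by limma in the labelled Ahr-KO SuHx lungs against WT SuHx lungs. At an unadjusted p under 0.05, where 7.45% of all genes were higher and 6.19% lower, there were 6 of 17 further enzymes, all lower. At that level 1 of 17 processing and uptake genes was higher. Of 10 LXR and efflux genes 3 were higher and 1 lower, and of 10 transcription factors there were 0. Against WT normoxia lungs, Mylip (-0.77), the exporter Abca1 (-1.06), Cyp27a1, a sterol hydroxylase (-0.79), and Ch25h (1.34) were called in the labelled Ahr-KO SuHx lungs, the 3 efflux and turnover genes as lower and Ch25h as higher. Of the 17 further enzymes, 1 was higher and 2 were lower (5.95% and 3.8% of all genes). The lower ones were Acacb (-0.77) and the elongation enzyme Hacd3 (-0.34). In ECs against WT normoxia lungs, 2 further enzymes were higher and 8 lower (26.1% and 30.1% of all genes). Among the lower were Scd2 (-2.19), the malic enzyme Me1 (-1.62) and Hacd3 (-1.46). Scarb1, a receptor for lipoprotein cholesterol, was higher (1.63), as was Ch25h (3.26), while Npc2, the lysosomal partner of Npc1, was lower (-1.01).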

How the data were processed

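RNA from rat lung and ECs was sequenced after Trizol and column extraction, per the labels' protocols, and rn6 and FastQC are named in the submitters' processing notes. The aligner, counter and strand setting were not given in the sources used, so overlapping and antisense genes may share reads. The deposited table holds a signal, read from its values as an estimated read count divided by the authors' factor for each library. In each library 79.87% to 81.73% of values above 0 lay within 0.05 of a whole number of reads, too few for a count test. Columns were assigned to groups by their names, which carry a suffix from 0 to 2 that was not tied to a single sample. The planned count test was for a table of whole counts only.

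From this signal, limma 3.58.1 in R 4.3.3 tested log2(signal + 1) of genes with a mean of at least 1 (eBayes with trend, two-sided, Benjamini-Hochberg over all genes), after a check on simulated data. The 3 lung comparisons came from 1 fit of 9 libraries and the EC comparison from a fit of 6. Fold changes are on the log2(signal + 1) scale and understate changes of low genes. Members and lists were chosen with earlier results of these data known. Every member was described, with per-library values for members called in lung, the regulators and the 3 largest changes each way in ECs, and list genes by the 4 smallest adjusted p. A few genes the rule takes are not reported here. Alternatives were other scalings, filters, pseudocounts, libraries in the fit, no trend, single libraries removed and a replicate block. Counts out of 19 (lung) or 15 (ECs) leave out the replicate block, which is given apart.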

Additional observations from a re-analysis of the deposited data

How the results depend on the processing

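Across all comparisons, 2128 fold changes of single genes were recomputed, with the replicate block and the repeated EC fit among them. Of these 1976 kept direction and side of the threshold, 83 lost a call, 33 gained one and 36 changed sign, 0 of them called in either setting. The causes were not tested.

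Leaving out 1 library at a time gave 8 to 11 higher and 0 to 3 lower members in WT SuHx against WT normoxia lungs (862 to 2380 genes called). The ranges were 0 to 0 higher and 0 to 1 lower in labelled Ahr-KO against WT SuHx lungs (32 to 100 genes), and 4 to 8 higher and 0 to 4 lower in labelled Ahr-KO SuHx against WT normoxia lungs (721 to 1882 genes). ECs against WT normoxia lungs gave 3 to 5 higher and 13 to 15 lower (7239 to 8069 genes).

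In labelled Ahr-KO against WT SuHx lungs, lower members numbered 0 without the trend, with only the groups compared and without normoxia 2 and Ahr-KO 2, and genes called numbered 47 without the trend and 126 with all 12 libraries. In labelled Ahr-KO SuHx against WT normoxia lungs, lower members numbered 0 without the trend, with quantile normalization, median rescaling, a pseudocount of 0.1 or only the groups compared, 2 with all 12 libraries and 3 without normoxia 2 and Ahr-KO 2. In WT SuHx against WT normoxia lungs they numbered 4 without those 2 libraries.

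The labels do not say that the suffixes pair libraries, and they were not taken to. Correlations of deviations from the group means ran from -0.04 to 0.22 for the same suffix (7 of 9 above 0) and from -0.20 to 0.18 for different suffixes (7 of 18 above 0), and 4 of 9 lung libraries correlated best with their own suffix in both other groups, a hint from the data and not the design. With the suffix as a replicate block, lower members numbered 2 in WT SuHx and 2 in labelled Ahr-KO SuHx lungs against WT normoxia lungs and 0 in labelled Ahr-KO against WT SuHx lungs. Genes called in WT SuHx against WT normoxia lungs numbered 3385, against 2052 without it, and Idi1 had an adjusted p of 0.0516 in labelled Ahr-KO against WT SuHx lungs (limma).

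Sign changes were as follows, as log2 fold changes. In WT SuHx against WT normoxia lungs, quantile normalization gave Srebf2 0.044 and Stard4 0.015, median rescaling gave 0.026 and 0.012, and leaving out normoxia 2 and Ahr-KO 2 gave Stard4 0.027. In labelled Ahr-KO against WT SuHx lungs, leaving out both gave Stard4 0.16 and Scd -0.27. In labelled Ahr-KO SuHx against WT normoxia lungs, quantile normalization gave Tm7sf2 0.014 and Fads1 0.063, median rescaling gave Stard4 0.0017 and Fads1 0.015, and leaving out both gave Pmvk -0.13, Ebp -0.030 and Stard4 0.19. In ECs against WT normoxia lungs, quantile normalization gave Scap -0.043, Hmgcs1 -0.12 and Dhcr7 0.22. With single libraries left out, the genes that changed sign in WT SuHx against WT normoxia lungs were Srebf2 (-0.044 to 0.025), Scap (-0.17 to 8e-04), Stard4 (-0.10 to 0.077) and Fads2 (-0.044 to 0.14). In labelled Ahr-KO against WT SuHx lungs they were Stard4 (-0.13 to 0.16), Hsd17b7 (-0.023 to 0.37) and Scd (-0.27 to 0.53). In labelled Ahr-KO SuHx against WT normoxia lungs they were Pmvk (-0.12 to 0.17), Ebp (-0.019 to 0.087), Stard4 (-0.15 to 0.14) and Fads1 (-0.084 to 0.050), and in ECs against WT normoxia lungs Hmgcs1 (-0.14 to 0.11).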
